A study of Mus musculus with 5 samples.

Results

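Genes that mark the dorsal midline of the forebrain and the choroid plexus epithelium that arises from it were followed across every library of an Eed deletion experiment. There are 10 of them, chosen by gene symbol: Ttr, Folr1, Clic6, Aqp1 and Htr2c of the epithelium, Otx2, Lmx1a, Msx1 and Msx2 among the midline transcription factors, and Foxj1 of ciliated cells. All 10 were found among the 27919 rows of the count table that carry a gene symbol. The 5 libraries hold polyadenylated RNA of whole forebrains of untreated C57BL/6 mouse embryos at E12.5. EedcKO, the submitters' name for the mutant, labels 3 of them, and wild type labels the others, WT1 and WT2, described as littermates of the mutants. The EED protein belongs to the core of Polycomb repressive complex 2, which methylates histone H3 at lysine 27. The sources used here do not give the driver of the deletion, the deleted exons or the number of embryos behind a library. The spread between samples, on which the p-values rest, may thus be partly technical.

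The choroid plexus is a secretory epithelium that grows into the brain ventricles and makes cerebrospinal fluid. In the telencephalon it forms next to the cortical hem, a strip of the dorsal midline that releases WNT and BMP signals to the neighbouring cortex. Midline factors such as LMX1A and MSX1 mark the hem and roof plate, OTX2 is needed for choroid plexus formation and upkeep, and mature epithelial cells carry tufts of cilia under the control of FOXJ1.

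The RefSeq promoter table (GRCm38.p6, the assembly that mm10 names) matched 6 of the 10 genes. In 4 of them, the 250 bases before a listed start site held no exon annotated by GENCODE. The last 150 bases before that start site are shown for these 4, because they set Msx1, rich in CG pairs, beside start sites of Otx2, Aqp1 and Htr2c with fewer. CG pairs are in capitals. Runs of DNA dense in CG pairs are where Polycomb repressive complex 2 is known to bind in mammalian cells. The Msx1 sequence lies at chr5:37824586-37824735 on the minus strand, Otx2 at chr14:48667645-48667794 on the minus strand, Aqp1 at chr6:55336149-55336298 and Htr2c at chrX:146962363-146962512, both on the plus strand.
Msx1: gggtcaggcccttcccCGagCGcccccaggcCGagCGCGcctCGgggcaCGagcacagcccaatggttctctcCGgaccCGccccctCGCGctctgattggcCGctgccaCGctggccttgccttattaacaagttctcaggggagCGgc
Otx2: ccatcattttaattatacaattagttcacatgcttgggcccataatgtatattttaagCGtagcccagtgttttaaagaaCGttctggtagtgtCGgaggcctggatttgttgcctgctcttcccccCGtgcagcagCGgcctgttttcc
Aqp1: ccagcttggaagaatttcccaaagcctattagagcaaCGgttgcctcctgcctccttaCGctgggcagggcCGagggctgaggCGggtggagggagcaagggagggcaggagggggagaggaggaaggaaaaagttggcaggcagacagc
Htr2c: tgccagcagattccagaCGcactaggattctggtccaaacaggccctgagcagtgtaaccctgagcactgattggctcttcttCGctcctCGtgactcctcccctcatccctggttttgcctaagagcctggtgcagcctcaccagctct

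Over the full 250 bases the Msx1 sequence held 20 CG pairs, a number reached by 17.9% of the 32851 promoters in the table. Msx2 held 16 (reached by 25.4%) and Lmx1a 9 (40.3%), in windows that overlap annotated exons. The 4 listed Otx2 start sites held 6, 8, 14 and 9. Aqp1 and Htr2c held 5 each, a number reached by 55.6% of promoters, and the median promoter held 6. The homeodomain core TAATTA was searched on both strands and is held by 4.84% of all promoters. It occurred 1 time before Msx2 and before the Otx2 start site shown, and 3 times before another Otx2 start site. TAATCC, the core bound by OTX proteins, is held by 6.25% of all promoters and occurred 1 time, before that other Otx2 start site. These matches are letters in a window and were not tested as binding sites.

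The libraries held 4915493, 4959394 and 5008928 counts in EedcKO 1, 2 and 3, against 5026381 in WT1 and 4820630 in the library labelled WT2. Eed, the targeted gene (chromosome 7, 89954654 to 89980983, minus strand, mm10), had 251, 233 and 247 counts in EedcKO 1, 2 and 3. There were 404 counts in WT1 and 238 in the library labelled WT2, so the Eed count of that library went against its label. On the log2 scale EedcKO stood at -0.40 relative to wild type (edgeR adjusted p = 0.412, SE 0.22). Every direction drawn from both wild-type libraries below rests in part on that library, and the pair is therefore also kept apart. As a check of the tissue, 9 telencephalon markers summed to 1453 to 1575 CPM in EedcKO, 1492 in WT1 and 1501 in the library labelled WT2. Single members differed more than the sum: Nkx2-1, of the ventral telencephalon, had 331, 7 and 6 counts in EedcKO 1, 2 and 3, against 863 in WT1 and 724 in the library labelled WT2. CPM are counts divided by the library size, scaled by TMM factors and set to a common total.

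The markers had 1 common feature: all 10 were highest in the library labelled WT2, as were 23.3% of the 13989 genes tested. In 9 of the 10, all but Otx2, the library labelled WT2 was at least 2-fold above WT1, as for 5.41% of the genes tested. EedcKO 3 was the lowest library for 8 of the 10, as for 17.8% of the genes tested. Their counts summed to 678, 1170 and 297 in EedcKO 1, 2 and 3, against 793 in WT1 and 3216 in the library labelled WT2. As summed CPM these were 141.2, 241.5, 60.8, 166.8 and 652. The library labelled WT2 thus stood 3.91-fold above WT1 (95% counting interval 3.62 to 4.23), which is more than any EedcKO library differed from WT1. EedcKO 2 was 1.45-fold above WT1 (1.32 to 1.59), EedcKO 1 was at 0.847 of it (0.763 to 0.940) and EedcKO 3 at 0.364 (0.318 to 0.417). These intervals cover counting error only. In RNA of a whole forebrain, fewer cells of a type and less RNA per cell cannot be told apart.

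**Figure D1:**
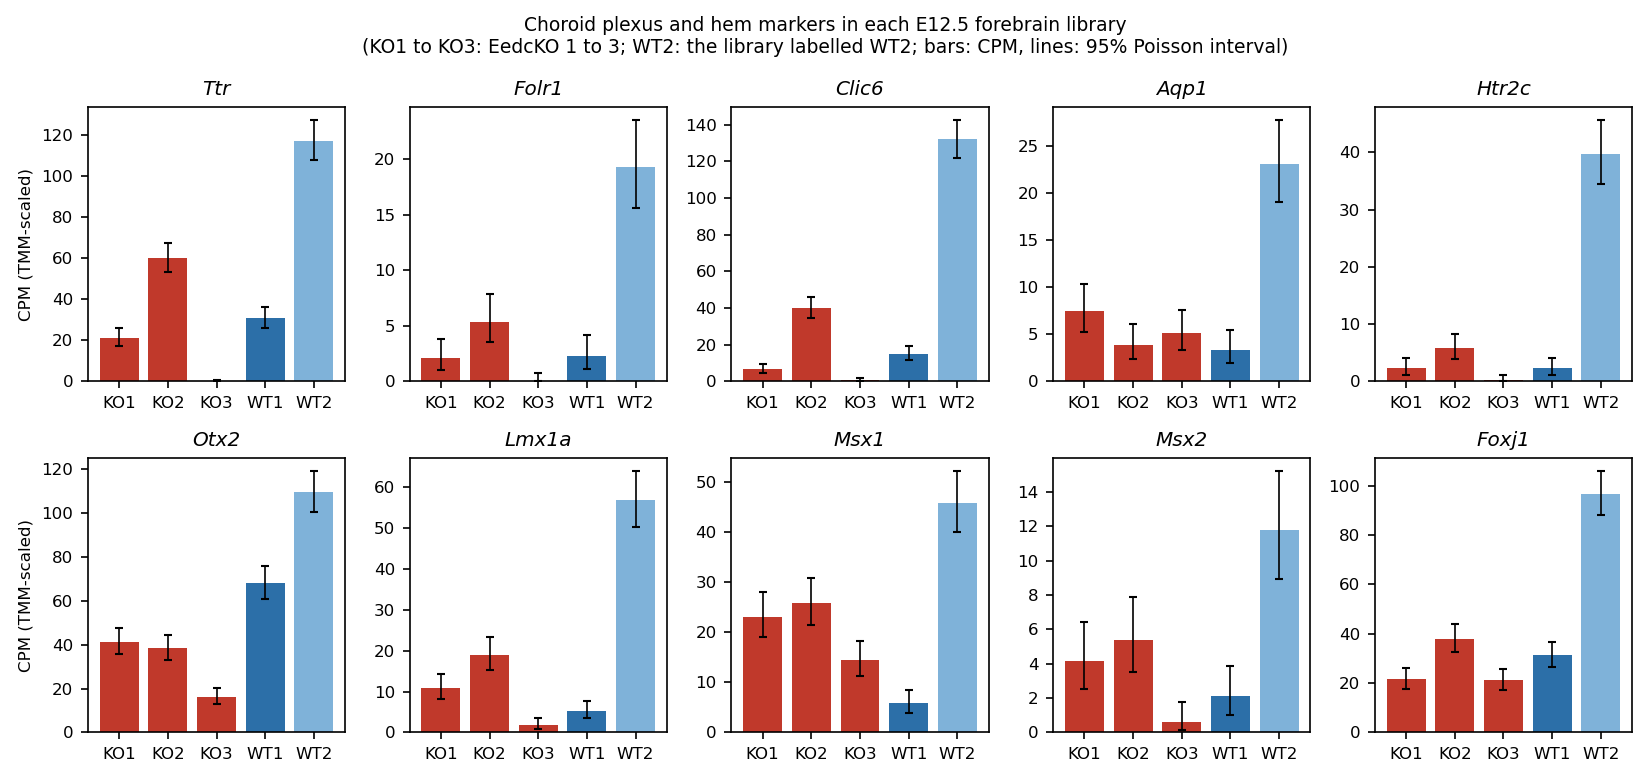
CPM (y axis, TMM-scaled, linear, one scale per gene) of each of the 10 markers in EedcKO 1, 2 and 3, WT1 and the library labelled WT2 (x axis). Bars are the library's value and lines its 95% Poisson interval. The last bar is the highest in all 10 panels, and the bar of EedcKO 3 is at 0 for Ttr and Folr1.

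In the edgeR quasi-likelihood fit of all 5 libraries, none of the 10 markers passed an adjusted p of 0.05, where 1.04% of all tested genes passed as higher and 2.17% as lower in EedcKO. With edgeR 1 marker had an unadjusted p under 0.05, as did 2407 of the 13989 tested genes. DESeq2 and limma-voom also called 0 markers, each with 1 marker at an unadjusted p under 0.05. Over all genes, 1880 reached that level with DESeq2 and 2388 with limma-voom. DESeq2 called 2% of genes higher and 3.14% lower, and limma-voom 0.822% and 2.02%. All 10 markers passed the filter on low counts. All 10 log2 fold changes were below 0, with a median of -1.46 against 0.01 over all tested genes. This direction depends on the library labelled WT2. Without it the median was 0.18, and 3 of the 10 were below 0. Without WT1 it was -2.11, and 10 of 10 were below 0.

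Ttr encodes transthyretin, the carrier of thyroid hormone and retinol that the choroid plexus secretes (chromosome 18, 20665280 to 20674321, plus strand). It had 102, 291 and 0 counts in EedcKO 1, 2 and 3, against 147 in WT1 and 579 in the library labelled WT2. EedcKO 2 thus stood above WT1 and EedcKO 1 below it, and the groups overlapped. With a floor of 3 counts in place of 0 (0.614 CPM in that library), Ttr was 50.4-fold lower in EedcKO 3 than in WT1. At that floor EedcKO 2 was 97.9-fold above EedcKO 3. By the exact 95% intervals, the ratio of EedcKO 3 to WT1 was at most 0.0247 and that of EedcKO 2 to EedcKO 3 at least 79.1. Over groups Ttr averaged 27.1 ± 30.5 CPM in EedcKO (SD, n = 3) and 74.2 ± 61.2 CPM in wild type (SD, n = 2). The log2 fold change was -1.46 (edgeR adjusted p = 0.685, SE 1.34). It was -2.81 without EedcKO 2, -0.87 without EedcKO 3 and -0.18 without the library labelled WT2, and passed the test in none of these. Markers of liver and yolk sac, which also make transthyretin, were near 0: Alb had 1 count, in the library labelled WT2, and Afp 1 there and 1 in EedcKO 2. That list of 10 genes summed to 14.0 to 21.3 CPM in EedcKO, 14.9 in WT1 and 15.2 in the library labelled WT2, most of it Trf. Its genes Serpina1a and Fgb had no count in any library.

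Clic6 encodes a chloride intracellular channel family member (chromosome 16, 92485736 to 92541243, plus strand). It had 33, 193 and 4 counts in EedcKO 1, 2 and 3, against 72 in WT1 and 651 in the library labelled WT2. The order of the libraries was that of Ttr, and the groups overlapped. The library labelled WT2 was 8.72-fold above WT1 (6.83 to 11.3), and EedcKO 2 was 48.7-fold above EedcKO 3 (18.7 to 180). Clic6 had a log2 fold change of -2.22 (edgeR adjusted p = 0.546, SE 1.45).

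Folr1 encodes folate receptor alpha, which carries folate across the choroid plexus (chromosome 7, 101858331 to 101870788, minus strand). It had 10, 26 and 0 counts in EedcKO 1, 2 and 3, against 11 in WT1 and 95 in the library labelled WT2. EedcKO 1 and WT1 did not differ beyond counting error (0.343 to 2.34 for their ratio). The group difference was -2.11 on the log2 scale (edgeR adjusted p = 0.458, SE 1.21). The gene overlaps Anapc15, annotated on the opposite strand, which had 271 to 342 counts in EedcKO, 310 in WT1 and 332 in the library labelled WT2. The use of strand in counting is not given, and the part of Anapc15 in the Folr1 counts was not tested.

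Htr2c encodes the serotonin 2C receptor, one of the most choroid-enriched receptors of the brain (chromosome X, 146962513 to 147197277, plus strand). It had 11, 28 and 1 counts in EedcKO 1, 2 and 3, against 11 in WT1 and 196 in the library labelled WT2. The 17.2-fold step between the library labelled WT2 and WT1 (9.40 to 35.0) was the largest of the 10 markers. EedcKO 1 and WT1 again did not differ beyond counting error (ratio 0.991, 0.389 to 2.52). For Htr2c the log2 fold change was -2.92 (edgeR adjusted p = 0.352, SE 1.33).

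Aqp1 encodes aquaporin 1, the water channel of the choroid epithelium, which red blood cells and endothelium of other tissues also carry (chromosome 6, 55336432 to 55348555, plus strand). It had 36, 19 and 25 counts in EedcKO 1, 2 and 3, against 16 in WT1 and 114 in the library labelled WT2. Unlike the 4 epithelial genes above, it was not lowest in EedcKO 3, and EedcKO 2 stood below EedcKO 1. For Aqp1 the log2 fold change was -1.27 (edgeR adjusted p = 0.429, SE 0.70). The erythroid list was likewise highest in the library labelled WT2 and next highest in EedcKO 1. Its 11 measured genes summed to 443, 301 and 256 CPM in EedcKO 1, 2 and 3, against 264 in WT1 and 661 in the library labelled WT2. The red cell anion exchanger Slc4a1 had 471, 183 and 130 counts in EedcKO 1, 2 and 3, against 134 in WT1 and 957 in the library labelled WT2. No erythroid gene was at 0 in any library, and the part of red cells in the Aqp1 values was not tested. The 10 endothelial genes summed to 273 to 376 CPM in EedcKO, 347.5 in WT1 and 262 in the library labelled WT2, where Aqp1 was highest.

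Otx2 encodes the homeodomain factor of choroid plexus fate (chromosome 14, 48657677 to 48673819, minus strand). It had 199, 187 and 80 counts in EedcKO 1, 2 and 3, against 324 in WT1 and 540 in the library labelled WT2. It was the only marker whose groups did not overlap: every EedcKO library lay below both wild-type libraries, as for 17.4% of all tested genes. It averaged 32.1 ± 13.7 CPM in EedcKO (SD, n = 3) and 88.8 ± 29.3 CPM in wild type (SD, n = 2). The log2 fold change of Otx2 was -1.47 (edgeR adjusted p = 0.126, SE 0.39). The log2 fold change was -1.79 against the library labelled WT2 alone (edgeR adjusted p = 0.142) and -1.08 against WT1 alone (edgeR adjusted p = 0.371), so it kept its sign with either wild-type library and passed the test with neither. The step between the library labelled WT2 and WT1 was 1.61-fold (1.40 to 1.85), the smallest of the 10. The antisense gene Otx2os1 overlaps Otx2 and had 4, 6 and 0 counts in EedcKO 1, 2 and 3, against 9 in WT1 and 23 in the library labelled WT2, few beside those of Otx2.

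Lmx1a encodes a LIM homeodomain factor of the hem and roof plate (chromosome 1, 167689237 to 167848741, plus strand). It had 52, 92 and 9 counts in EedcKO 1, 2 and 3, against 25 in WT1 and 280 in the library labelled WT2. EedcKO 1 and 2 thus lay above WT1, by 2.06-fold (1.26 to 3.46) and 3.61-fold (2.30 to 5.87), and EedcKO 3 lay below it. The log2 fold change was -1.56 over all libraries (edgeR adjusted p = 0.610, SE 1.19), -2.44 against the library labelled WT2 alone and 1.01 against WT1 alone. LMX1A and OTX2 also mark the ventral midbrain. Of 12 floor plate and midbrain genes, En1 had at most 2 counts in EedcKO, 0 in WT1 and 8 in the library labelled WT2, and Foxa2 0 in EedcKO, 1 in WT1 and 3 in the library labelled WT2. Foxa1 had 18, 30 and 12 counts in EedcKO 1, 2 and 3, against 1 in WT1 and 31 in the library labelled WT2. Nr4a2, which cortical neurons also express, had 238, 340 and 294 in EedcKO 1, 2 and 3, against 194 in WT1 and 360 in the library labelled WT2. That list summed to 63.8 to 86.9 CPM in EedcKO, 92.1 in WT1 and 122 in the library labelled WT2, and its part in the Lmx1a and Otx2 values was not tested.

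Msx1 encodes a homeodomain repressor induced by BMP signals (chromosome 5, 37820485 to 37824583, minus strand). It had 111, 125 and 71 counts in EedcKO 1, 2 and 3, against 28 in WT1 and 226 in the library labelled WT2. All 3 EedcKO libraries lay between the wild-type libraries. They averaged 21.15 ± 5.89 CPM (SD, n = 3), against 5.89 CPM in WT1 and 45.8 CPM in the library labelled WT2. The call therefore turned with the library used. Against WT1 alone Msx1 was higher in EedcKO (log2 fold change 1.85, edgeR adjusted p = 0.0247, SE 0.38), the only marker to pass as higher. Against the library labelled WT2 alone it was lower (-1.13, edgeR adjusted p = 0.0380, SE 0.26). With both it was -0.30 (edgeR adjusted p = 0.902, SE 0.78). Both single-library fits assume that the lone wild-type library varies as the EedcKO libraries do.

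Msx2, the close relative of Msx1 (chromosome 13, 53466884 to 53473074, minus strand), had 20, 26 and 3 counts in EedcKO 1, 2 and 3, against 10 in WT1 and 58 in the library labelled WT2. EedcKO 1 and WT1 did not differ beyond counting error (ratio 1.98, 0.885 to 4.74). EedcKO 3 was lowest for Msx2 at 3 counts, where Msx1 had 71. Over both groups the log2 fold change of Msx2 was -1.04 (edgeR adjusted p = 0.627, SE 0.86). Surface ectoderm and facial mesenchyme also express MSX genes. The 15 listed genes of these tissues summed to 166, 127 and 132.5 CPM in EedcKO 1, 2 and 3, against 91.1 in WT1 and 374 in the library labelled WT2. The epidermal keratin Krt5 had 20, 1 and 0 counts in EedcKO 1, 2 and 3, against 0 in WT1 and 428 in the library labelled WT2. Krt14 had 3, 1 and 0 in EedcKO, 0 in WT1 and 200 in the library labelled WT2. Other genes of the list were present in every library, among them Prrx1, with 338 to 441 counts in EedcKO, 172 in WT1 and 291 in the library labelled WT2, and Twist1, with 27 to 53 in EedcKO, 15 in WT1 and 123 in the library labelled WT2. Against the library labelled WT2 alone, 8 of the 15 passed as lower (4.02% of all tested genes), among them Krt14, Twist1 and Epcam. Against WT1 alone 2 of 12 passed, Prrx1 and Prrx2, as higher (2.07% of all tested genes). The part of surface tissue in the Msx1 and Msx2 values was not tested.

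Foxj1 encodes the forkhead factor that switches on motile cilia (chromosome 11, 116330704 to 116335399, minus strand). It had 104, 183 and 104 counts in EedcKO 1, 2 and 3, against 149 in WT1 and 477 in the library labelled WT2. The EedcKO libraries spread around WT1, with EedcKO 1 and 3 below it and EedcKO 2 at 1.21-fold of it (0.966 to 1.51), within counting error. Its log2 fold change was -1.25 (edgeR adjusted p = 0.299, SE 0.51). Against the library labelled WT2 alone it was -1.86 (edgeR adjusted p = 0.0161, SE 0.28), and against WT1 alone -0.21 (edgeR adjusted p = 0.797).

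Against the library labelled WT2 alone, 3 of the 10 markers passed as lower, where 4.02% of all tested genes did, and 0 as higher, where 3.01% did. They were Msx1, Foxj1 and Aqp1 (log2 fold change -2.08, edgeR adjusted p = 0.00985, SE 0.32). Against WT1 alone 0 passed as lower and 1 as higher, where 4.12% and 2.07% of all tested genes did. Among the markers that did not pass against the library labelled WT2 were Ttr, Clic6 and Htr2c, whose EedcKO libraries were far apart. Whether that spread kept them from passing was not tested. Their log2 fold changes against the library labelled WT2 were -2.13 (SE 1.84), -3.08 (SE 1.65) and -3.86 (SE 0.79), with edgeR adjusted p = 0.618, 0.446 and 0.0683.

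**Figure D2:**
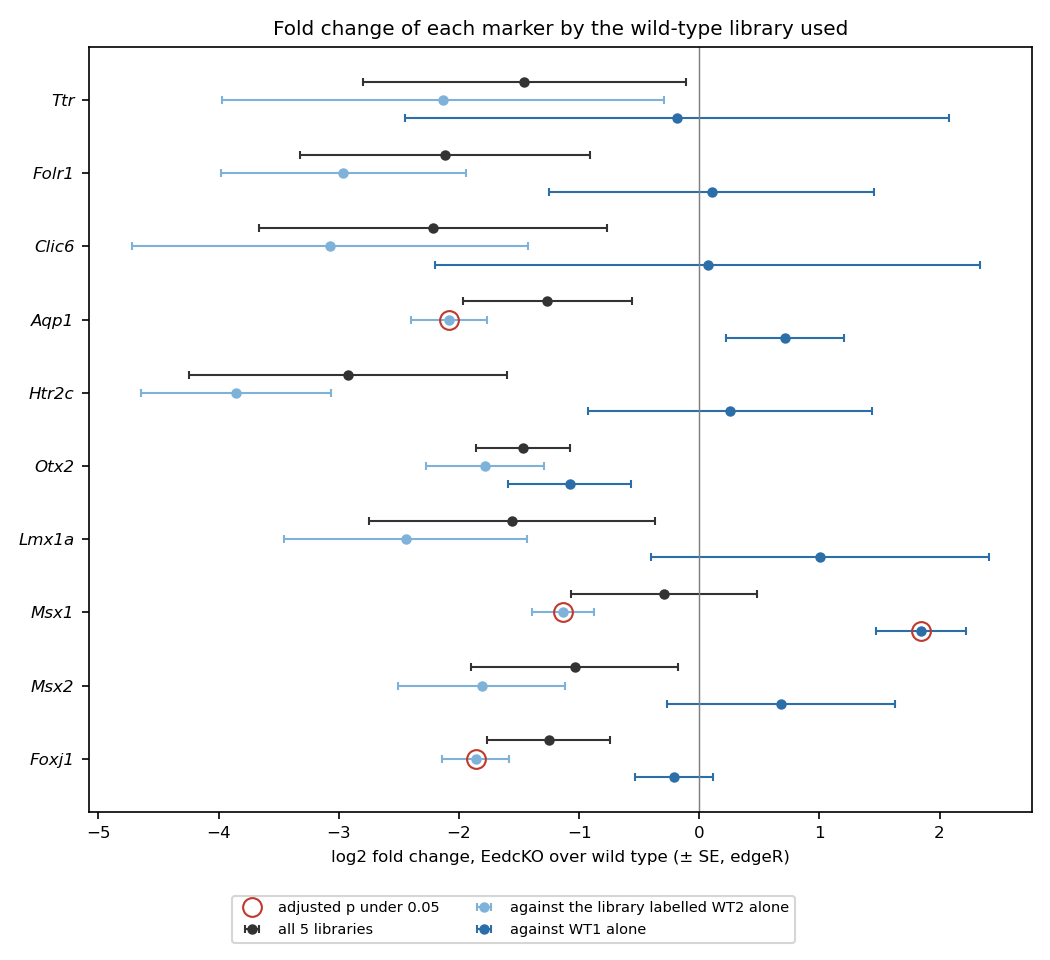
Log2 fold change of each marker, EedcKO over wild type (x axis, points, with the SE as lines), from edgeR with all 5 libraries, with the library labelled WT2 alone as wild type, and with WT1 alone as wild type. Rings mark an adjusted p under 0.05. The fold change of Msx1 is ringed on both sides of 0, at -1.13 and 1.85, and Otx2 is below 0 in all 3 fits.

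Set on a scale that takes gene length into account, the deposited TPM (transcript abundance scaled to a common total), Ttr was the most abundant marker in 4 of the 5 libraries. Its level was 87.7 and 245 TPM in EedcKO 1 and 2, against 125 TPM in WT1 and 480 TPM in the library labelled WT2. In EedcKO 3, where Ttr was at 0, Foxj1 led with 39.1 TPM, followed by Msx1 with 22.6 TPM and Otx2 with 18.7 TPM. Htr2c was the least abundant in 3 libraries, with 1.20 TPM in EedcKO 1, 3.001 TPM in EedcKO 2 and 1.19 TPM in WT1.

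The mix of markers differed between libraries beyond counting error. Of the summed marker counts, Clic6 took 4.87% in EedcKO 1 (95% exact binomial interval 3.37% to 6.77%), 16.5% in EedcKO 2 (14.4% to 18.8%) and 1.35% in EedcKO 3 (0.368% to 3.41%). It took 9.08% in WT1 (7.17% to 11.3%) and 20.2% in the library labelled WT2 (18.9% to 21.7%). Within EedcKO the share of Msx1 went the other way, with 16.4%, 10.7% and 23.9% in EedcKO 1, 2 and 3. Its counts did not: like those of Clic6, they were highest in EedcKO 2 and lowest in EedcKO 3. A share also moves with the counts of the other markers. Between the wild-type libraries the share of Msx1 went the same way as that of Clic6, with 3.53% in WT1 (2.36% to 5.06%) and 7.03% in the library labelled WT2 (6.17% to 7.97%). Every EedcKO share of Msx1 thus lay above both wild-type shares. Foxj1 held a narrow range of 14.8% to 18.8% in 4 libraries and 35.0% in EedcKO 3. Ttr took 0 of 297 marker counts in EedcKO 3 (95% exact binomial interval 0% to 1.23%), where the floor of 3 counts would be a share of 1.01%.

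**Figure D3:**
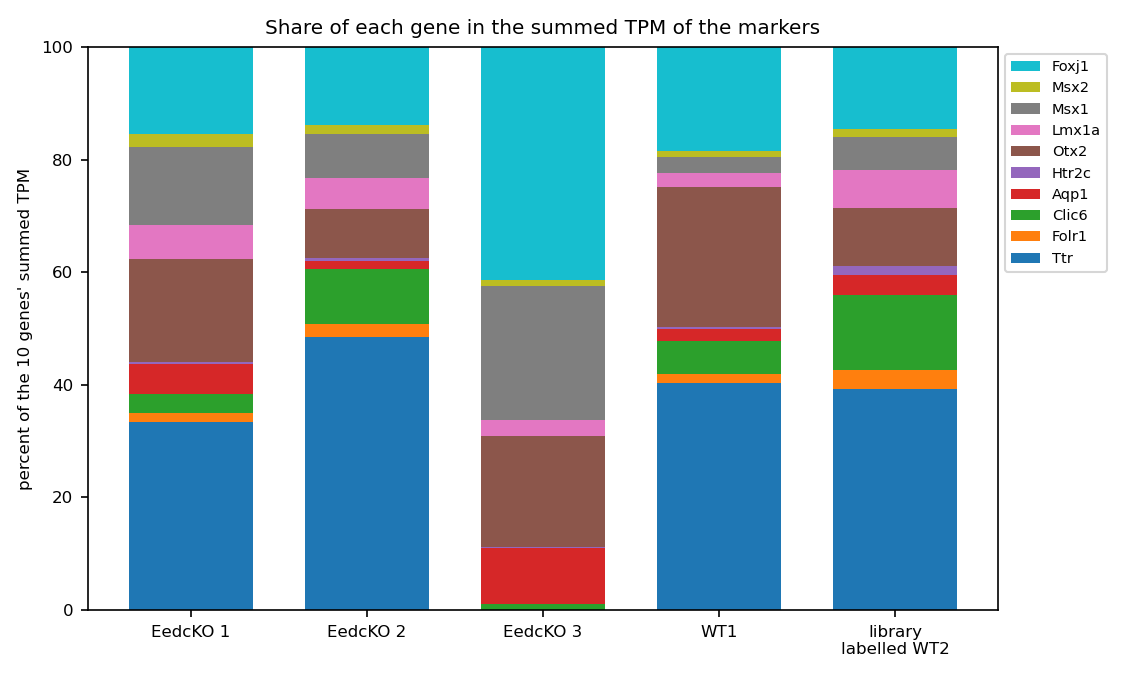
Share of each gene in the summed deposited TPM of the 10 markers (y axis, percent, bars add to 100) in each library (x axis). Ttr fills 33.4% and 48.5% in EedcKO 1 and 2, 40.3% in WT1 and 39.3% in the library labelled WT2, and nothing in EedcKO 3, where Foxj1 fills 41.4%.

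Of 24 further hem and roof plate genes, 22 were tested and 0 passed with edgeR. An unadjusted edgeR p under 0.05 was reached by 3 of them, as by 2407 of all 13989 tested genes. The median log2 fold change was -0.80 against 0.01 over all tested genes. DESeq2 called 1, Zic1, and limma-voom 0. Without EedcKO 1, edgeR called Zic1 and Zic4 as lower, where 262 of all 13828 tested genes passed in either direction. Axin2 had 83.05 to 103 CPM in EedcKO, 82.03 in WT1 and 161.9 in the library labelled WT2. Bmp7 had 29.31 to 32.52 CPM in EedcKO, 20.19 in WT1 and 54.36 in the library labelled WT2. Both thus lay between the wild-type libraries in every EedcKO library. Bmp4 lay below both in CPM, as did 17.4% of all tested genes, with 2.659 to 3.958 in EedcKO, 3.996 in WT1 and 14.81 in the library labelled WT2. EedcKO 1 and WT1 had 19 Bmp4 counts each, so their order came from the scaling alone. Of the 22, 18 were highest in the library labelled WT2 (23.3% of all tested genes) and 14 lowest in EedcKO 3 (17.8%). Wnt3a, the WNT ligand that defines the hem, had 35, 69 and 0 counts in EedcKO 1, 2 and 3, against 15 in WT1 and 198 in the library labelled WT2. The WNT amplifier Rspo2 had 102, 176 and 6 in EedcKO 1, 2 and 3, against 132 in WT1 and 481 in the library labelled WT2. Wnt3a and Rspo2 were chosen after their values were seen. The most abundant genes of the list did not follow this order. The BMP target Id4 had 1598, 1625 and 1722 counts in EedcKO, against 1367 in WT1 and 1541 in the library labelled WT2. The zinc finger factor Zic1 had 999, 677 and 780 in EedcKO, against 1456 in WT1 and 1296 in the library labelled WT2 (log2 fold change -0.75, edgeR adjusted p = 0.0590).

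Of 30 further choroid epithelium genes, 19 were tested and 0 passed with edgeR. An unadjusted edgeR p under 0.05 was reached by 2 of them, as by 2407 of all 13989 tested genes. The median log2 fold change was -0.67. DESeq2 called 1, Cldn1, as lower and limma-voom 0. Of the 19, 14 were highest in the library labelled WT2 (23.3% of all tested genes). The 2 most abundant, which other forebrain cells also express, differed little between the groups (log2 fold change 0.15 for Slc12a2 and 0.02 for Igfbp2). The transporter Slc12a2 had 751, 678 and 582 counts in EedcKO, against 672 in WT1 and 535 in the library labelled WT2, and Igfbp2, which binds insulin-like growth factors, had 611 to 639 in EedcKO, against 512 in WT1 and 713 in the library labelled WT2. The more restricted Kcne2, a potassium channel subunit chosen after its values were seen, had 10, 43 and 3 in EedcKO 1, 2 and 3, against 25 in WT1 and 315 in the library labelled WT2. Against that library alone, 9 of 25 tested genes passed as lower (4.02% of all tested genes), among them the pore subunit Kcnj13 and the tight junction gene Cldn1. Against WT1 alone 1 of 19 passed, Car12, as higher (2.07% of all tested genes).

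Of 25 genes of multiciliated cells and their program, 20 were tested and 1 fell (2.17% of all tested genes). The median log2 fold change was -1.24, and 19 of 20 were highest in the library labelled WT2 (23.3% of all tested genes). The gene that fell was Tppp3, a microtubule-binding protein, with 9.63 ± 0.433 CPM in EedcKO (SD, n = 3) and 20.2 ± 3.86 CPM in wild type (SD, n = 2). Its log2 fold change was -1.07 (edgeR adjusted p = 0.0384, SE 0.20), and it lost its call without EedcKO 1, 2 or 3 and without the library labelled WT2. DESeq2 called 3 genes as lower (3.14% of all tested genes), Tppp3, Trp73 and Ak7. Of the regulators of the multiciliated program on the list, Gmnc, Mcidas and Ccno were at 0 in EedcKO 3, and were chosen after their values were seen. Gmnc had 68, 74 and 0 counts in EedcKO 1, 2 and 3, against 52 in WT1 and 331 in the library labelled WT2. Mcidas had 14, 50 and 0, against 33 in WT1 and 90 in the library labelled WT2. Ccno had 20, 55 and 0, against 36 in WT1 and 167 in the library labelled WT2. Other regulators were not at 0 in EedcKO 3, where Foxj1 had 104 counts, Trp73 216, Myb 117, Rfx2 132, Rfx3 579, Rfx4 253 and Foxn4 1. Against the library labelled WT2 alone 10 of 24 passed as lower (4.02% of all tested genes), and against WT1 alone 0 of 20 (4.12%).

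**Figure D4:**
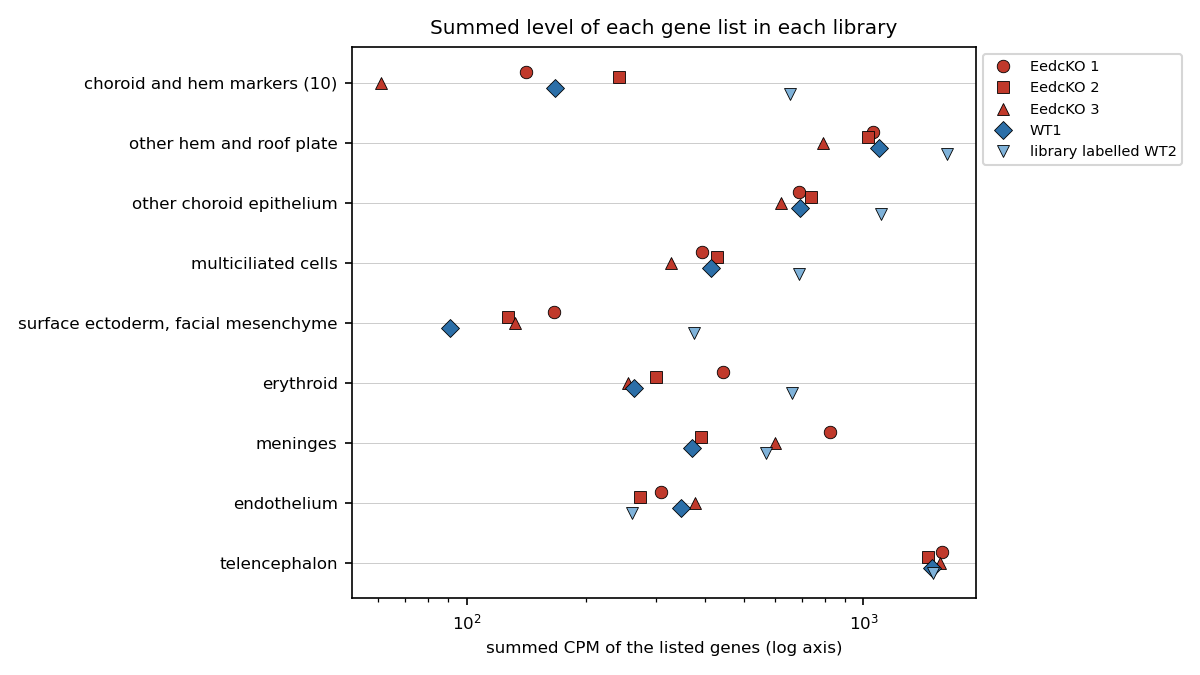
Summed CPM (x axis, log axis) of the 10 markers and of 8 further gene lists (y axis) in each library (symbols). The library labelled WT2 is highest for the markers (652 CPM) and for the hem, choroid, multiciliated, surface and erythroid lists, and lowest for the endothelium list. EedcKO 3 is lowest for the markers (60.8 CPM).

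Among the remaining lists, 1 of 5 tested floor plate and midbrain genes fell (2.17% of all tested genes). It was Shh, the ventral morphogen, with 5, 1 and 3 counts in EedcKO, against 124 in WT1 and 103 in the library labelled WT2 (log2 fold change -5.19, edgeR adjusted p = 0.00455, SE 0.40). All 3 EedcKO libraries lay far below both wild-type libraries. Of 9 telencephalon genes 2 rose with edgeR, where 1.04% of all tested genes did. They were the progenitor factors Eomes (log2 fold change 1.16, edgeR adjusted p = 0.0137) and Pax6 (0.65, edgeR adjusted p = 0.0286). DESeq2 called 3 as higher and 2 as lower, where 2% and 3.14% of all tested genes passed. The calls of Shh, Eomes and Pax6 were lost without EedcKO 3, a fit in which no gene passed and 1886 had an unadjusted edgeR p under 0.05. Eomes also lost its call without EedcKO 2, and Pax6 without EedcKO 1 or 2. None of 10 meninges genes passed (Col3a1 0.53 and Col1a1 0.28 on the log2 scale). An unadjusted edgeR p under 0.05 was reached by 4 of them, as by 2407 of all 13989 tested genes. Of these 4, Foxd1 (-0.998), Foxc2 (-1.33) and Aldh1a2 (-0.97) were lower in EedcKO and Lum (0.67) was higher. The sum of the 10 meninges genes was highest in EedcKO 1, at 825 CPM, against 370 in WT1 and 567 in the library labelled WT2. None of 3 tested eye pigment genes passed (Dct 1.36, Mitf -0.79), nor did any of 10 endothelial genes (Kdr 0.11, Cdh5 0.04). The same held for 11 erythroid genes (Hbb-y -0.17, Hba-x -0.11) and 2 liver and yolk sac genes (Trf 0.15, Apom 0.53). Of 13 surface genes 0 passed with edgeR (Prrx1 0.73, Krt5 -4.89), and 4 had an unadjusted edgeR p under 0.05, as did 2407 of all 13989 tested genes. DESeq2 called Prrx1 as higher and Tfap2b as lower. Rpe65 of the eye list had no count in any library.

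By the distance between centred log2 CPM profiles over the 5 libraries, the genes most like the mean of the 10 markers among 13112 candidates were Ttll6, Deup1, Rbm47, Irx1 and Zmynd10. Their distances were 0.414 to 0.540, where the median candidate was at 3.17. Deup1, a component of the deuterosomes that multiply centrioles in multiciliated cells, had 9, 17 and 1 counts in EedcKO 1, 2 and 3, against 12 in WT1 and 65 in the library labelled WT2. Zmynd10, an assembly factor of ciliary dynein arms, had 13, 26 and 3, against 19 in WT1 and 83 in the library labelled WT2. Ttll6, a tubulin glutamylase, had 4, 10 and 0, against 4 in WT1 and 43 in the library labelled WT2. The order of the libraries in Deup1 and Zmynd10 was that of Ttr. The homeodomain gene Irx1 had 5, 16 and 0, against 6 in WT1 and 46 in the library labelled WT2, and the RNA-binding protein gene Rbm47 had 11, 26 and 1, against 13 in WT1 and 78 in the library labelled WT2.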

How the data were processed

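The submitters' processing notes name the genome build mm10 and the aligner HISAT2, version 2.2.0. The sources used here give neither the counting tool nor its strand setting and annotation. The authors deposited whole-number counts per gene (56196 rows) and TPM (24926 rows, each column with the same sum). Rows with no symbol (28277 rows, 2.01% to 2.16% of the counts) were left out of library sizes and tests. The highest count of any gene was 6396, for Map1b, and 5.05% to 5.81% of the named counts fell on the top 100 genes. The highest values may therefore be compressed, for reasons the sources do not give. There were 0 columns of other series' samples.

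Counts were tested in R 4.3.3 with edgeR 4.0.16: filterByExpr by group, TMM, robust glmQLFit and glmQLFTest, with Benjamini-Hochberg adjustment over all 13989 genes tested and a threshold of 0.05. The SE is the log2 fold change over the square root of F. On simulated counts for 13840 genes, changes were put only into genes above a cutoff in mean CPM, which Folr1, Msx2 and Aqp1 do not reach. In these the edgeR fit recovered 44% of simulated 1.5-fold changes, 84% of 2-fold and 98% of 4-fold and of 8-fold changes. Of 183 calls, 21 were false. Recovery was not measured for genes with fewer counts, nor separately for a spread as wide as that of Clic6 (SE 1.45). Intervals are exact Poisson or binomial at 95% and cover counting error only. Depth gave a floor of 3 counts, or 0.609 to 0.631 CPM. Ratios of libraries use counts over TMM-scaled library size. Alternatives were DESeq2 1.42.0, limma-voom (limma 3.58.1), RLE factors, unscaled library sizes, robust estimation off, other count filters, the replicate number as a block, embryo sex (from Xist and Y-linked counts), limma-trend on log2(TPM + 1) and log2(TPM + 0.1), and each library left out. Coordinates are GENCODE M21 by symbol, 1-based, and promoters are from RefSeq.

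The 10 markers, the companion lists and the naming rule were chosen with earlier results of these data known. Named were the 10 markers, Eed, up to 4 genes of each list past the threshold or otherwise its 2 most abundant, and the 5 nearest profiles (mean log2 CPM of at least 1, prior count 2). All other genes that the text names, genes overlapping a marker aside, were chosen after their values were seen. Of the listed genes, Ahsp was not used here, and 1 telencephalon gene is not reported here.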

Additional observations from a re-analysis of the deposited data

How the results depend on the processing

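No marker passed in the alternatives that kept all 5 libraries, where the lowest adjusted p of a marker was 0.0585, for Clic6 with the replicate block. The number of markers past the threshold, 0 with all libraries, was 0 to 3 with 1 library left out: 3 without WT1 and 1 without the library labelled WT2. The number of all genes past the threshold, 448 with all libraries, was 0 to 1012 with 1 library left out (0 without EedcKO 3, where 1886 genes had an unadjusted edgeR p under 0.05). It was 677 with DESeq2, 203, 152 and 42 on log2 of TPM with a pseudocount of 1, of 0.1 and of 1 with no filter on low values, and 0 with embryo sex as a covariate (1611 genes at an unadjusted edgeR p under 0.05). Both wild-type libraries and EedcKO 1 were female, so that fit compares EedcKO 1 alone with wild type. The replicate number as a block also gave 0 genes (2169 at an unadjusted edgeR p under 0.05). The numbers are shared by 2 pairs only, and deviations of same-numbered libraries had r = -0.0412 and 0.130. With 2 wild-type libraries the wild-type deviations are mirror images, so these r values cannot tell whether same-numbered libraries share a litter or batch. No marker passed with or without the block. With the block 5 of the 10 markers had an unadjusted edgeR p under 0.05, and without it 1, where 2407 of all 13989 tested genes did. EedcKO 3 shares its number with no wild-type library, so the block fit draws no group difference from it.

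The sign of Msx1, -0.30 with all libraries, was reversed with limma-voom (0.29), the replicate block (0.32) and log2 of TPM with pseudocounts of 1 (0.29), 0.1 (0.33) and 1 with no filter (0.29), and the cause was not tested. Without the library labelled WT2, the highest for each of them, the log2 fold changes of 7 markers turned positive. With 1 library left out they ranged over -1.13 to 1.85 for Msx1, -2.44 to 1.01 for Lmx1a, -2.08 to 0.71 for Aqp1, -1.81 to 0.68 for Msx2, -4.06 to 0.26 for Htr2c, -3.35 to 0.11 for Folr1 and -4.26 to 0.070 for Clic6. They kept their sign for Ttr (-2.81 to -0.18), Otx2 (-1.79 to -1.08) and Foxj1 (-1.86 to -0.21). Ttr was at -3.60 with limma-voom and -4.25 on log2 of TPM with a pseudocount of 0.1. Depth limited Folr1, Msx2 and Htr2c most, at 0 to 28 counts in every EedcKO library and in WT1.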
